A study of Mus musculus with 44 samples.

Results

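Collagen, laminin and other structural matrix genes were followed in cultures of mouse peritoneal macrophages. Members were all rows of the count table whose symbol names a numbered collagen chain, a laminin chain, a fibulin, a fibrillin or a nidogen, together with Lum, Dcn, Ogn, Bgn and Sparc. The rule found 68 of 46078 genes, and 47 of the 68 had enough counts to be tested. They comprised 11 fibrillar collagen chains, 6 collagen IV chains, 6 collagen VI chains, 21 other collagen chains, 11 laminin chains, 2 nidogens, 4 fibulins, 2 fibrillins, 4 small leucine-rich proteoglycans and the matricellular protein Sparc.

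The cells came from C57BL/6 mice, with no genetic change named in the labels. Thioglycolate, a broth that draws leukocytes into the peritoneal cavity, was injected, and the cavity was washed out 4 days later. Cells from several animals were combined, and what adhered was classed by the study as macrophages, so the replicates were cultures of 1 isolate and p-values measure only the spread between cultures. Mesothelial cells and fibroblasts also adhere. Control cultures received medium alone. The stimuli were 10 µg/mL of an extract of H9c2 cells, a rat heart-derived myoblast line, as a source of the molecules that damaged cells release; 100 ng/mL of the bacterial product LPS; and 10 ng/mL of the cytokine IL-4. Polyadenylated RNA was sequenced after 8, 24 and 72 h. The 12 groups held 4 libraries each, apart from extract at 24 h and the control, IL-4 and extract groups of 72 h, with 3 each.

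Fibrillar collagens form the fibres of connective tissue, and collagen IV, laminins and nidogens form the sheet-like basement membrane under epithelia, mesothelium and vessels. Collagen VI forms beaded filaments beside basement membranes, fibrillins and fibulins build elastic microfibrils, and small leucine-rich proteoglycans coat collagen fibres. Fibroblasts, smooth muscle and mesothelial cells make most of this matrix in the peritoneum; macrophages are known mainly for degrading, taking up and rearranging it, although they transcribe some collagen genes.

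Library totals ran from 0.909 M to 26.6 M gene counts, and the group medians lay between 2.43 M, for the 8 h IL-4 libraries, and 15.9 M, for those of IL-4 at 72 h. The 8 macrophage markers examined, which include Adgre1, Csf1r and Lyz2, summed to 7901 to 30720 CPM per library (counts per M gene counts, with library sizes scaled by TMM). 4 libraries stood apart from their groups. Il6 was at 101 CPM in control 8 h replicate 1 against 1.74 to 3.04 in its group; control 24 h replicate 1 (15.3) and IL-4 24 h replicate 1 (19.6) stood apart in the same way. In IL-4 72 h replicate 3, Retnla, an IL-4-induced gene, was at 13.2 CPM against 854 and 778. In 7 other libraries, each numbered replicate 3, 3.75% to 7.73% of gene counts fell on the 18S ribosomal entry. In this text, "rose" and "fell" mean an adjusted p under 0.05 in edgeR's quasi-likelihood test fitted to all genes, and values listed by group are CPM in replicate order. With a stimulus these words compare with control of the same time, not with an earlier time of the same stimulus.

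In control cultures the structural matrix genes rose with time. Of the 47 tested members, 20 rose from 8 to 72 h and 0 fell, where 6.38% of all 14537 tested genes rose and 7.16% fell. At an unadjusted p under 0.05, edgeR gave 27 higher and 0 lower, and DESeq2 at its adjusted threshold gave 23 and 0. The median log2 change was 1.20 against -0.05 over all tested genes. Col1a2, which with Col1a1 makes collagen I, was at 50.0, 54.1, 57.5 and 53.6 CPM at 8 h and 565, 193 and 242 at 72 h. Every 72 h culture lay above every 8 h culture, and replicate 1 was the highest (log2 change 2.64 ± 0.27 SE, adjusted p = 2.80e-09). Without that library the log2 change was 2.02 (adjusted p = 3.80e-07). Sparc, a collagen-binding matricellular protein, went from 41.8, 49.0, 60.7 and 51.5 to 433, 207 and 287 CPM (log2 change 2.61 ± 0.21 SE, adjusted p = 1.72e-11), again with no overlap.

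At 72 h most of these genes were lower in stimulated cultures than in control. With LPS 27 members fell and 0 rose (background 15.4% lower, 16.1% higher). Unadjusted, edgeR gave 29 lower and 0 higher, and DESeq2 gave 29 and 0. With IL-4 28 fell and 1 rose (background 10.5% and 13.2%), and with cell extract 23 fell and 1 rose (background 12.2% and 14.2%). Median log2 changes of the members were -2.11 against 0.05 over all genes with LPS, -1.39 against -0.00123 with IL-4 and -1.12 against 0.00417 with extract. 20 members fell with all 3 stimuli, where 4.41% of all tested genes did; these comparisons share the 3 control libraries, so they are not independent of each other. The counts without libraries that stood apart were 28 lower with LPS, 24 with IL-4 and 25 with extract.

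**Figure D1:**
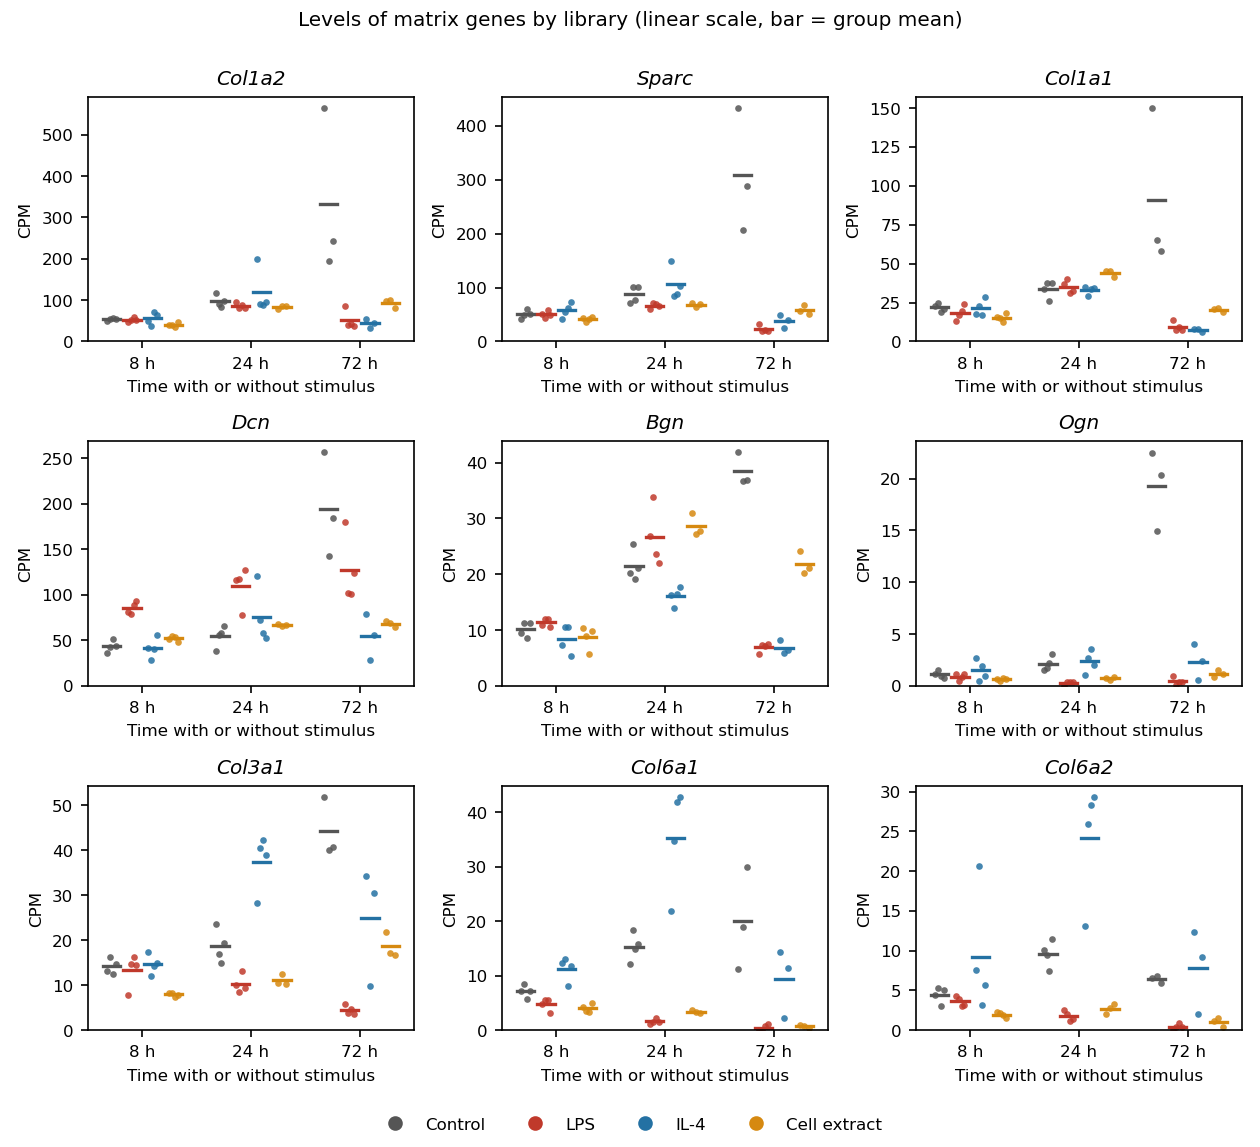
Expression of 9 members in CPM (linear axes from 0) by time and stimulus, with 1 point per library and a bar at each group mean. Col1a2 and Sparc climb in control to 193 to 565 and 207 to 433 CPM at 72 h, and for both of these genes all stimulated cultures at that time lie below 100 CPM.

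These changes ran alongside mesothelial and smooth muscle markers and part of the fibroblast list. The mesothelial list, 12 genes with 10 tested, rose in 7 and fell in 0 from 8 to 72 h in control; at 72 h 10 fell with LPS, 10 with extract and 6 with IL-4, and none rose. Its summed level was 12.7 to 21.0 CPM in control at 8 h, 26.2 to 29.6 at 24 h and 81.1 to 114 at 72 h, against 1.93 to 6.04 with LPS, 5.80 to 20.9 with IL-4 and 2.25 to 4.29 with extract at 72 h. Upk3b, which encodes a mesothelial surface protein, averaged 2.38 ± 0.285 CPM (SD, n = 4) in control at 8 h and 39.8 ± 10.9 (SD, n = 3) at 72 h. The fibroblast list, 12 genes with 7 tested, gave 3 higher and 0 lower over time in control, and 4, 4 and 3 lower with LPS, IL-4 and extract at 72 h. Its sum was 23.0 to 31.4 CPM in control at 8 h, 85.1 to 115 at 72 h, 11.6 to 16.5 with LPS, 15.4 to 47.3 with IL-4 and 23.9 to 29.8 with extract at 72 h. Pdgfra (mean 48.8 CPM) and Gas1 (36.4 CPM) made up most of the sum in control at 72 h. Pdgfrb was not called with any stimulus at 72 h (log2 changes 1.17 with LPS, -1.74 with IL-4 and 0.43 with extract). Thy1 (0.26) and Pi16 (0.07) were not called with LPS at 72 h. Smooth muscle markers, 6 genes with 2 tested, summed to 68.3 to 77.2 CPM in control at 72 h and 0.964 to 5.25 over the stimulated cultures, and both tested genes rose with time in control and fell with each stimulus. Muc16 had no count at 72 h in any group, Tcf21 and Dpt none with LPS or IL-4, and Mfap4 none in control or LPS. The endothelial list, 5 genes with 3 tested, moved otherwise, with 0 higher and 1 lower over time in control. Its sum was 47.0 to 77.9 CPM in control at 8 h and 25.15 to 33.9 at 72 h. At 72 h it was 13.2 to 21.2 with LPS, 53.0 to 71.85 with IL-4 and 29.8 to 37.15 with extract. There 2 of the 3 fell with LPS, 1 rose with IL-4 and 0 were called with extract. The macrophage list differed too: of its 8 genes 5 rose and 1 fell with LPS at 72 h, 6 rose and 1 fell with extract, and 1 rose and 3 fell with IL-4. Its sum at 72 h was 9702 to 17627 CPM in control, 12516 to 21691 with LPS, 26580 to 30720 with extract and 11169 to 17110 with IL-4, so the extract cultures alone lay wholly above control. The part of these cells in the matrix result was not tested directly, and in bulk RNA fewer cells of a type and less RNA per cell cannot be told apart. The striated muscle list was drawn up with the H9c2 source in mind, and 2 of its 9 genes, Des and Chrna1, were tested. Its sum was 3.93 to 6.04 CPM with extract at 8 h and 6.23 to 7.07 in control. Des, at 5.14 CPM in control at 8 h, made up most of that sum. It rose over time in control (log2 change 1.91) and fell with extract at 72 h (-3.36), as the tested smooth muscle genes did. Whether H9c2 RNA was carried into the cultures was therefore not tested by this sum.

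**Figure D2:**
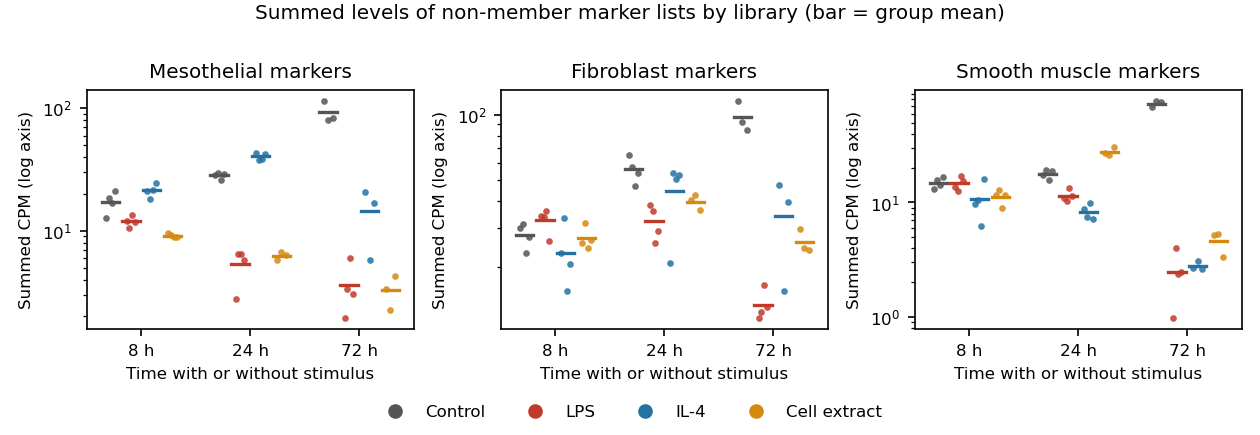
Summed CPM of the marker lists (mesothelial, fibroblast and smooth muscle) on logarithmic axes, by time and stimulus, with 1 point per library and a bar at each group mean. The mesothelial sum in control climbs from at most 21.0 CPM at 8 h to at least 81.1 at 72 h, and no stimulated library at 72 h is above 20.9.

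Members were then separated by how they moved. A member had the stromal pattern if it rose in control from 8 to 72 h and fell with LPS at 72 h, which is how earlier results of these data had shown mesothelial and fibroblast markers to move. It counted as raised by a stimulus if it rose against control of the same time, averaged at least 1 CPM and had every stimulated library above every control library. 14 members had the stromal pattern alone, 10 were raised alone, 5 had both (Col3a1, Col4a1, Col4a2, Col6a1 and Dcn) and 18 had neither. Over all tested genes 3.61% had the stromal pattern and 38.8% were raised in at least 1 of the 9 comparisons, so the 19 of 47 with the stromal pattern stand against a low background and the 15 of 47 raised do not. Both conditions of the stromal pattern use the same control libraries of 72 h, so they are not independent of each other or of the counts above. For Dcn and Col6a1 a call that the pattern needs went when single libraries were left out, as given below. The split describes behaviour and does not show which cell made a transcript.

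**Figure D3:**
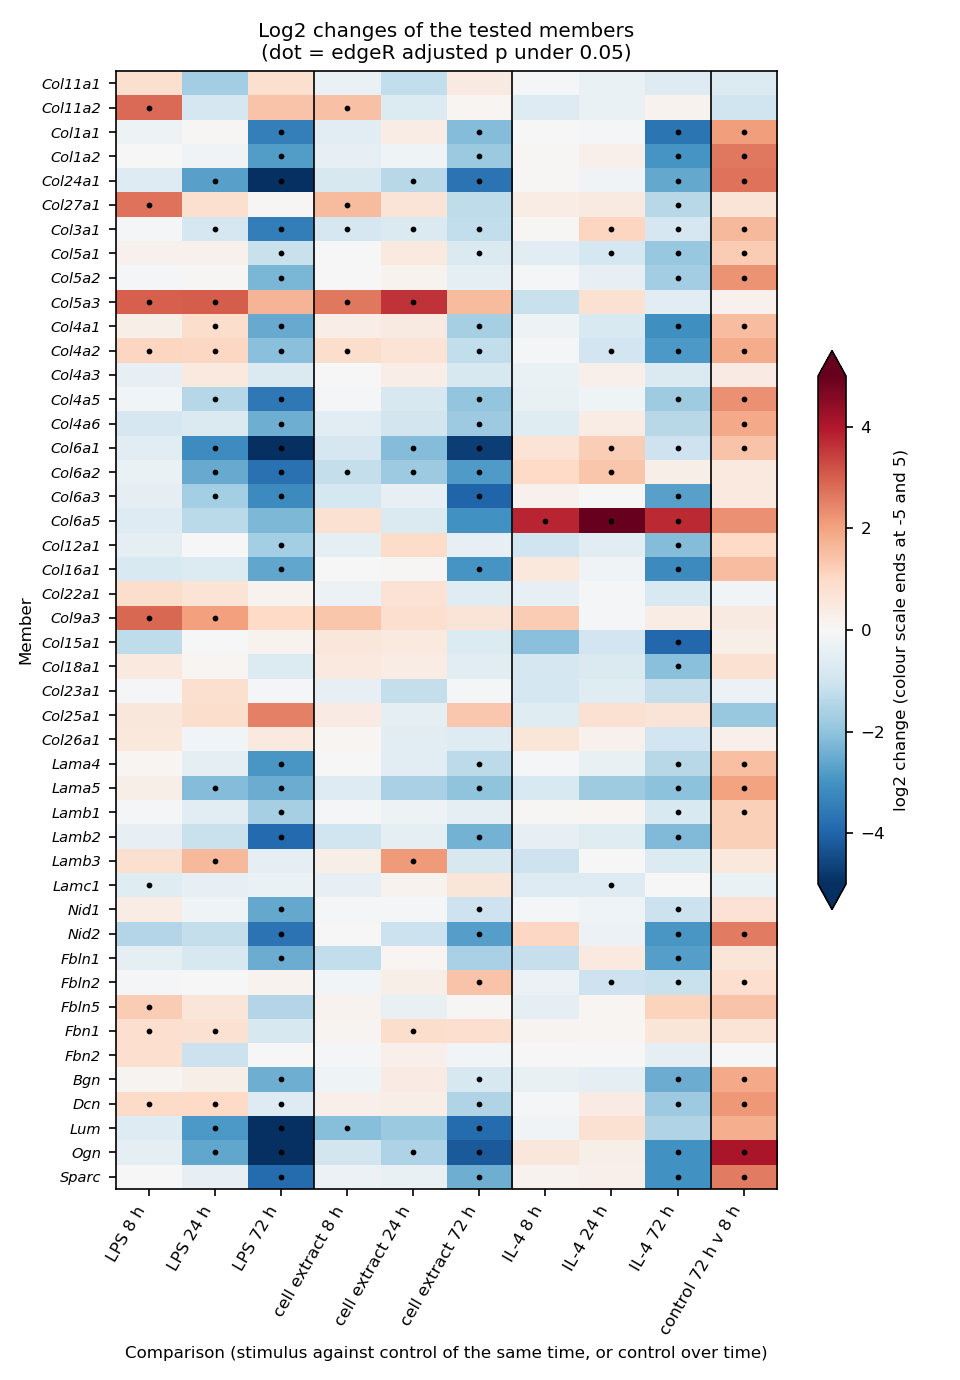
Fitted log2 changes of 46 of the 47 tested members (rows, ordered by role) in the 9 stimulus comparisons and the control time course (columns); blue is lower, red is higher, colours end at log2 changes of -5 and 5, and dots mark an edgeR adjusted p under 0.05. The 72 h stimulus columns are mostly blue and the control time course mostly red, with 23 to 28 members lower per stimulus and 20 higher over time.

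Levels of different members were compared per kilobase of exon. In control at 72 h Sparc averaged 81.5 ± 30.3 CPM per kb (SD, n = 3), Dcn 33.4 ± 9.92, Col1a2 26.8 ± 16.2, Col1a1 13.8 ± 7.80 and Ogn 7.50 ± 1.51. Each neighbouring pair from Dcn to Ogn overlapped within their SDs, and Sparc stood above Dcn. With LPS at 72 h Dcn was first at 21.7 ± 6.36 CPM per kb (SD, n = 4), ahead of Sparc at 6.07 ± 1.6 and Fbln2 at 4.68 ± 0.956. With extract the order was Sparc 15.4 ± 2.06, Dcn 11.7 ± 0.615 and Fbln2 11.6 ± 1.86 (SD, n = 3). Sparc and Fbln2 with LPS, and Dcn and Fbln2 with extract, overlapped within their SDs.

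Among fibrillar collagens, both chains of collagen I fell with every stimulus at 72 h. Col1a1 was at 149.9, 65.1 and 57.8 CPM in control, 13.5, 7.57, 9.15 and 7.57 with LPS, 8.15, 8.11 and 5.92 with IL-4 and 20.7, 21.8 and 18.9 with extract. All stimulated libraries lay below all controls, and extract stayed the highest of the 3 stimuli. The log2 changes were -3.43 ± 0.24 (SE, adjusted p = 9.65e-15) with LPS, -3.64 ± 0.25 (SE, adjusted p = 4.38e-14) with IL-4 and -2.19 ± 0.24 (SE, adjusted p = 3.74e-09) with extract. Without control replicate 1 the IL-4 and extract values became -3.05 (adjusted p = 1.88e-13) and -1.6 (adjusted p = 2.67e-07), and the rise in control 1.49 (adjusted p = 1.25e-06). Col1a2 moved with it: 86.8, 39.6, 42.3 and 37.6 CPM with LPS, 53.3, 32.5 and 45.1 with IL-4 and 97.6, 99.8 and 80.0 with extract, log2 changes -2.79, -2.94 and -1.86, or -2.17 (adjusted p = 6.71e-09), -2.31 (adjusted p = 3.00e-08) and -1.24 (adjusted p = 5.84e-04) without that control.

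Col3a1, the chain of collagen III found with collagen I in soft tissue, rose with IL-4 and fell with LPS at 24 h. It was at 23.7, 17.0, 14.9 and 19.4 CPM in control, 28.3, 40.4, 42.2 and 38.9 with IL-4 and 10.1, 8.60, 13.1 and 9.49 with LPS. IL-4 cultures lay above and LPS cultures below all controls (log2 change 1.06 ± 0.22 SE, adjusted p = 7.81e-04 and log2 change -0.84 ± 0.23 SE, adjusted p = 0.00299). By 72 h Col3a1 was lower with LPS by a log2 change of -3.44 ± 0.28 (SE, adjusted p = 7.16e-13); with IL-4 it was -0.83 ± 0.25 (SE, adjusted p = 0.0126), and without IL-4 replicate 3 -0.46 (adjusted p = 0.100) or without control replicate 1 -0.69 (adjusted p = 0.0855). Col3a1 lies at chr1:45311538-45349706 (plus strand, GRCm38), beside Col5a2, and a predicted gene, Gm47302, overlaps it on the same strand. Col5a2, a regulatory chain of collagen V, rose in control by 2.25 ± 0.19 (SE, adjusted p = 2.99e-11) and fell with LPS and IL-4 by 2.28 and 1.75 on the log2 scale. Col24a1, a minor fibrillar chain, fell with LPS already at 24 h, from 1.98, 3.53, 2.68 and 3.5 CPM to 0.559, 0.620, 0.239 and 0.395 (log2 change -2.73 ± 0.45 SE, adjusted p = 4.34e-06).

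3 fibrillar chains went the other way, early and at low level. Col5a3, a minor chain of collagen V, was at 0.286, 0, 0.480 and 0.213 CPM in control at 8 h, 1.44, 1.76, 1.63 and 1.38 with LPS and 1.07, 1.19, 1.32 and 1.27 with extract. All stimulated libraries exceeded all controls, where the level was near the limit of detection. The log2 change was 3.00 ± 0.70 (SE, adjusted p = 4.27e-04) with LPS and 2.63 ± 0.69 (SE, adjusted p = 0.00279) with extract, and without control replicate 2 these were 2.27 (adjusted p = 0.00457) and 1.90 (adjusted p = 0.0262). At 24 h it was 1.68, 1.32, 2.47 and 1.48 CPM with LPS and 3.12, 2.04 and 2.67 with extract against 0.247, 0.535, 0.0865 and 0, log2 changes 3.02 ± 0.69 (SE, adjusted p = 4.34e-04) and 3.60 ± 0.70 (SE, adjusted p = 9.06e-05), or 4.25 (adjusted p = 1.17e-04) and 4.82 (adjusted p = 3.55e-05) without control replicate 2. Col27a1, a fibrillar collagen best known from cartilage, was at 1.62, 1.77, 0.799 and 0.639 CPM in control at 8 h, 8.91, 9.38, 5.34 and 10.1 with LPS and 3.76, 6.01, 2.27 and 2.79 with extract. Both stimulated groups lay wholly above control, LPS mostly above extract (log2 change 2.71 ± 0.37 SE, adjusted p = 6.62e-08, and log2 change 1.56 ± 0.37 SE, adjusted p = 8.08e-04). Col11a2, a collagen XI chain, was at 0.286, 0.443, 0.480 and 0.533 CPM in control and 4.31, 2.93, 2.21 and 3.45 with LPS at 8 h, again without overlap (log2 change 2.84 ± 0.57 SE, adjusted p = 6.61e-05). The mesothelial sum in those LPS and extract cultures at 8 h was 10.6 to 13.5 and 8.87 to 9.53 CPM, LPS overlapping and extract below the control range (12.7 to 21.0), and the fibroblast sum was 26.2 to 36.1 and 24.4 to 31.6 against 23.0 to 31.4. Within that sum Pdgfrb, a receptor of fibroblasts and pericytes, rose from 0.405 ± 0.119 CPM in control to 5.38 ± 0.988 with LPS and 5.08 ± 0.307 with extract (SD, n = 4; log2 changes 3.66 and 3.58, adjusted p = 8.75e-09 and 2.77e-08), and Gas1 fell (log2 changes -2.61 and -1.86). The part of Pdgfrb-expressing cells in the rise of Col5a3, Col27a1 and Col11a2 was not tested.

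The windows of 250 bases before the start of Col5a3, Col27a1 and Col6a5 are shown because these genes carry the early and IL-4 responses (RefSeq, GRCm38.p6; 5′ to 3′ on the gene's strand). Capitals mark a match to the NF-kB motif, searched on both strands.
Col5a3, chr9:20815068-20815317, minus strand: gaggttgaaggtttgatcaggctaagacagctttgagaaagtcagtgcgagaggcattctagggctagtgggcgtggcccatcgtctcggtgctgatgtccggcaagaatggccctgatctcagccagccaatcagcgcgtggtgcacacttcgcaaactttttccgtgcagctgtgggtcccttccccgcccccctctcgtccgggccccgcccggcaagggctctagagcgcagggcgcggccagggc
Col27a1, chr4:63215162-63215411, plus strand: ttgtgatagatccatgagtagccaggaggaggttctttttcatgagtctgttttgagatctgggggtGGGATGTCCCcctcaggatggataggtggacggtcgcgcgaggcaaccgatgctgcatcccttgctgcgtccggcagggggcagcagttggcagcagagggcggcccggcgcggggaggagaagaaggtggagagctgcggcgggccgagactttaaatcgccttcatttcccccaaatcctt
Col6a5, chr9:105960644-105960893, minus strand: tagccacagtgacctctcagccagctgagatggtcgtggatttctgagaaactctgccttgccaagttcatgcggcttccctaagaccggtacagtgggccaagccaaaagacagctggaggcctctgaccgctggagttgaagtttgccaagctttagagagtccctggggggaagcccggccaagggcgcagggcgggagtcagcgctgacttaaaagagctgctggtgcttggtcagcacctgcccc
The Col27a1 match lies 183 to 174 bases before the RefSeq start. The GENCODE M21 annotation starts Col27a1 earlier, at chr4:63214004, so this window lies inside the gene as annotated there. The Col5a3 and Col6a5 windows directly precede their GENCODE starts. The NF-kB motif occurred in 7.25% of 32851 windows of this length and in 8 of the 55 windows found for 49 members. The STAT6 motif, TTC and GAA with 4 bases between them, is bound by the factor that IL-4 activates and occurred in 5.85% of all windows and in that of 1 member, Bgn. A match describes letters in a window, not binding.

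Collagen IV, the network of the basement membrane, showed both directions. Col4a1 (chr8:11198423-11312826, minus strand) and Col4a2 (chr8:11312805-11449287, plus strand) form its commonest trimer and overlap at their starts; the strand setting of the counting is not given, so reads there cannot be told apart. Col4a2 was at 2.77, 2.93, 1.76 and 1.39 CPM in control and 4.03, 5.13, 4.53 and 5.52 with LPS at 8 h, and at 2.96, 4.92, 2.68 and 1.89 and 7.27, 7.05, 6.13 and 5.43 at 24 h. LPS cultures lay above all controls at both times (log2 change 1.07 ± 0.29 SE, adjusted p = 0.00211 and 1.05 ± 0.28 SE, adjusted p = 0.00245). Its rise with extract at 8 h, 0.87 ± 0.28 (SE, adjusted p = 0.0157), was 0.71 (adjusted p = 0.0722) without control replicate 4 and 0.71 (adjusted p = 0.0813) without extract replicate 2. Col4a1 rose with LPS at 24 h, from 6.17, 6.85, 5.45 and 6.05 to 15.4, 12.3, 8.21 and 9.39 CPM (log2 change 0.86 ± 0.26 SE, adjusted p = 0.00723). At 72 h the order was reversed: Col4a1 was at 22.7, 12.4 and 9.63 CPM in control and 1.93, 2.80, 3.11 and 2.44 with LPS, and Col4a2 at 9.33, 7.11 and 8.03 and 0.964, 1.77, 3.11 and 1.28. The log2 changes were -2.51 ± 0.32 (SE, adjusted p = 3.15e-08) and -2.11 ± 0.34 (SE, adjusted p = 3.89e-06), with no overlap. Col4a5, a chain of specialised basement membranes, fell with LPS at 24 h (log2 change -1.42 ± 0.33 SE, adjusted p = 5.45e-04) and 72 h (log2 change -3.59 ± 0.40 SE, adjusted p = 1.48e-09, or -4.24, adjusted p = 1.46e-09 without LPS replicate 4).

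At 24 h the collagen VI chains Col6a1, Col6a2 and Col6a5 rose with IL-4, and Col6a1, Col6a2 and Col6a3 fell with LPS. Col6a1, a core chain, was at 12.1, 18.3, 15.0 and 15.9 CPM in control at 24 h, 21.8, 34.6, 41.8 and 42.7 with IL-4, 1.12, 1.55, 2.31 and 1.58 with LPS and 3.61, 3.38 and 3.16 with extract. IL-4 cultures lay above, and LPS and extract cultures far below, every control (log2 change 1.24 ± 0.31 SE, adjusted p = 0.00668, -3.15 ± 0.38 SE, adjusted p = 6.93e-09 and -2.19 ± 0.38 SE, adjusted p = 1.43e-05). Its partner Col6a2, on the same chromosome at chr10:76595762-76623630 (minus strand; Col6a1 at chr10:76708792-76726168, minus strand), was at 10.1, 9.42, 7.44 and 11.5 CPM in control and 13.1, 25.9, 28.3 and 29.3 with IL-4 (log2 change 1.40 ± 0.34 SE, adjusted p = 0.00510) and fell by 2.51 ± 0.40 on the log2 scale (SE, adjusted p = 2.17e-06) with LPS. At 24 h with IL-4 the mesothelial sum was 37.9 to 43.6 CPM against 26.2 to 29.6, and 3 of 10 tested mesothelial markers rose. These were Krt18, Krt8 and Lrrn4 (log2 changes 2.85, 2.5 and 1.2). The others were not called, with Upk3b (-0.77), Bnc1 (-0.63), Rspo1 (-0.27) and Wt1 (-0.035) below 0 and Upk1b, Krt19 and Nkain4 above it. The fibroblast sum was 20.7 to 53.9 CPM with IL-4 and 47.0 to 65.5 in control. The part of mesothelial cells and fibroblasts in the rise of Col3a1, Col6a1 and Col6a2 was not tested. At 72 h Col6a1 fell with LPS by 5.09 ± 0.53 on the log2 scale (SE, adjusted p = 3.43e-10) and with extract by 4.72 ± 0.52 on the log2 scale (SE, adjusted p = 4.83e-09). Without LPS replicate 2 and replicate 4 the LPS value was -4.39 (adjusted p = 1.22e-08) and -6.25 (adjusted p = 1.35e-09), and without extract replicate 2 the extract value was -5.35 (adjusted p = 4.48e-07). Col6a1's fall with IL-4 at 72 h (-1.02 ± 0.38 SE, adjusted p = 0.0480) went to -0.57 (adjusted p = 0.226) without IL-4 replicate 3, -1.17 (adjusted p = 0.0549) without IL-4 replicate 4, -1.03 (adjusted p = 0.0870) without control replicate 3 and -0.64 (adjusted p = 0.290) without control replicate 4; its rise in control with time went to 1.03 (adjusted p = 0.0939) without control replicate 4. Col6a3, the longest of the core chains, fell with LPS at 24 h by 1.70 ± 0.36 on the log2 scale (SE, adjusted p = 1.78e-04) and with all 3 stimuli at 72 h.

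Col6a5, a long alternative alpha chain of collagen VI, had the largest fitted rise of the 47 tested members with IL-4 at each time. It lies between Col6a6 and Col6a4 at chr9:105856078-105960643 (minus strand), and its promoter window, printed above, held no STAT6 match. At 24 h it was at 6.54, 8.85, 11.6 and 11.6 CPM with IL-4 and 0.247, 0.107, 0.0865 and 0 in control, with 464 counts in all IL-4 libraries against 3 in control, a ratio of 118 (95% counting interval 40.0 to 572). All 4 IL-4 cultures were high and all 4 controls at or near 0 (log2 change 6.66 ± 0.99 SE, adjusted p = 4.67e-06). At 8 h the values were 2.71, 4.54, 1.24 and 0.316 against 0.573, 0, 0 and 0.107 CPM, and groups overlapped. The log2 change there, 3.82 ± 1.00 (SE, adjusted p = 0.00969), was 5.91 (adjusted p = 0.00183) without control replicate 1, 3.02 (adjusted p = 0.0694) without control replicate 2 and 3.60 (adjusted p = 0.0548) without IL-4 replicate 1. At 72 h they were 16.8, 0.280 and 13.6 against 0.424, 1.78 and 0 CPM, with IL-4 replicate 3, the library low in Retnla, inside the control range. The log2 change 3.74 ± 0.97 (SE, adjusted p = 0.00421) became 5.06 (adjusted p = 0.00560) without control replicate 3; without IL-4 replicate 3 it was 4.31 (adjusted p = 1.43e-04). With LPS and extract Col6a5 was at 0 to 0.0797 and 0 to 0.162 CPM at 24 h.

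**Figure D4:**
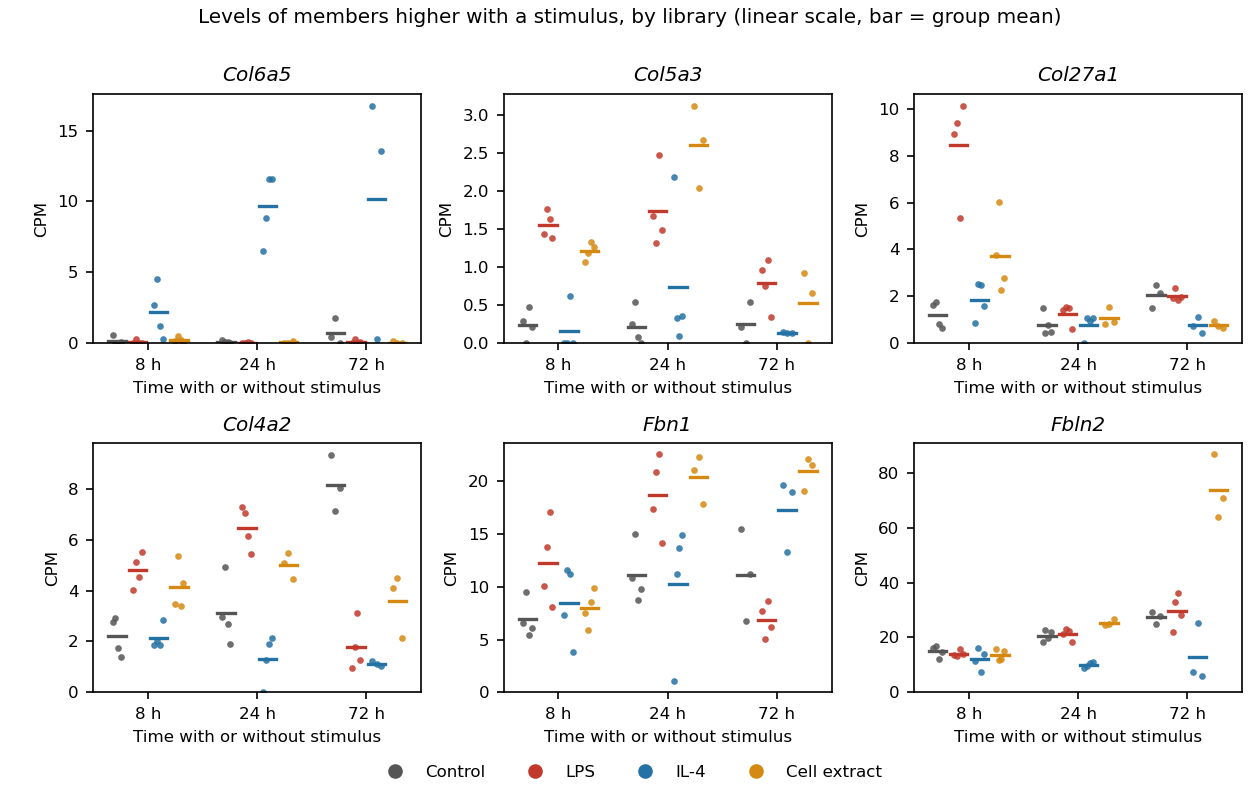
Expression in CPM (linear axes from 0) of 6 members raised by a stimulus, by time and stimulus, with 1 point per library and a bar at each group mean. Col6a5 stands at 6.54 to 11.6 CPM with IL-4 at 24 h against at most 0.247 in control, and Fbln2 at 63.8 to 86.9 CPM with extract at 72 h against at most 29.3.

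Of the other 21 collagen chains most had too few counts for a test. Of 9 fibril-associated chains 4 were tested. Col9a3 rose with LPS at 8 h from 0.286, 0.0682, 0.160 and 0.213 to 0.863, 1.76, 0.813 and 1.61 CPM (log2 change 2.86 ± 0.75 SE, adjusted p = 0.00168). It overlaps Tcfl5 on the opposite strand, and the strand setting is not given, so reads there cannot be told apart. At 72 h 2 of the 4 fell with LPS, 2 with IL-4 and 1 with extract (background 15.4%, 10.5% and 12.2% lower). Col16a1, named after its values were seen, fell with all 3 stimuli, from 1.91, 1.07 and 1.07 CPM in control. Both multiplexins, Col15a1 and Col18a1, are basement membrane collagens that carry heparan or chondroitin sulphate. They fell with IL-4 at 72 h by 3.91 and 2.09 on the log2 scale, the latter -2.71 (adjusted p = 9.93e-05) without IL-4 replicate 3. The Col15a1 value rests on 2, 1 and 1 counts with IL-4 and 4, 3 and 4 in control, near the limit of detection. Both multiplexins were named after their values were seen. No transmembrane or other collagen chain was called in any of the 10 comparisons of groups among the 3 that were tested, and none of the 3 short-chain network collagens had enough counts for a test.

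Laminins, the cross-shaped trimers of the basement membrane, followed the stromal pattern in part. Of 7 tested laminin chains 3 rose over time in control (background 6.38%). At 72 h 4 fell with LPS, 4 with IL-4 and 3 with extract (background 15.4%, 10.5% and 12.2% lower). Lamc1, the gamma chain shared by most laminins, was not called at 72 h, at 26.7 to 30.1 CPM in control, 39.0 to 47.0 with extract and 12.5 to 28.0 with LPS. At 8 h it fell with LPS by 0.62 ± 0.22 on the log2 scale (SE, adjusted p = 0.0183), a call that went without control replicate 2 (-0.47, adjusted p = 0.101) and without LPS replicate 4 (-0.48, adjusted p = 0.0915). Lama5, an alpha chain of epithelial basement membranes, was at 1.24, 0.963, 0.778 and 0.851 CPM in control and 0, 0.310, 0.0797 and 0.296 with LPS at 24 h, without overlap (log2 change -2.16 ± 0.64 SE, adjusted p = 0.00649). Lamb3, a chain of laminin-332, rose with extract at 24 h, from 0.247, 0.214, 0.173 and 0.378 to 1.23, 1.5 and 0.728 CPM (log2 change 2.14 ± 0.59 SE, adjusted p = 0.00541). With LPS at 24 h Lamb3 was at 0.559, 1.16, 0.637 and 0.791 CPM, also above every control. Nid1, the link between laminin and collagen IV, was at 12.5, 9.96 and 9.63 CPM in control at 72 h and 0, 1.59, 2.93 and 1.63 with LPS (log2 change -2.56 ± 0.31 SE, adjusted p = 7.11e-09). With IL-4 and extract its log2 changes were -1.06 and -1.04, and all libraries were again below control; the differences between stimuli were not tested.

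Fbln2 was the 1 member that rose with extract at 72 h. It encodes a fibulin of elastic fibres and basement membranes and was at 29.3, 24.9 and 27.8 CPM in control, 86.9, 63.8 and 71.0 with extract, 22.2, 33.1, 36.1 and 28.1 with LPS and 7.43, 25.3 and 5.99 with IL-4. Every extract library exceeded every control (log2 change 1.44 ± 0.28 SE, adjusted p = 1.11e-04), LPS overlapped control, and IL-4 replicate 3 lay near control while the other two were far below. The fall with IL-4, -1.10 ± 0.28 (SE, adjusted p = 0.00353), was -2.02 (adjusted p = 6.75e-10) without that library. In those extract cultures the mesothelial sum was 2.25 to 4.29 CPM and the fibroblast sum 23.9 to 29.8. The macrophage sum there, 26580 to 30720 CPM, lay above the 9702 to 17627 of control, and its part in the rise of Fbln2 was not tested. Fbn1, the main microfibril protein, was at 10.9, 15.0, 8.73 and 9.83 CPM in control, 21.0, 22.3 and 17.8 with extract and 17.3, 20.8, 22.5 and 14.1 with LPS at 24 h. Fbn1 rose with LPS although the groups overlapped (log2 change 0.76 ± 0.26 SE, adjusted p = 0.0195). That call went without control replicates 3 (0.65, adjusted p = 0.0746) or 4 (0.71, adjusted p = 0.0576), LPS replicates 2 (0.71, adjusted p = 0.0538) or 3 (0.66, adjusted p = 0.0721), or the ribosomal-rich libraries (0.55, adjusted p = 0.168). At 8 h it also rose with LPS, by 0.82 ± 0.28 (SE, adjusted p = 0.0133), again with overlap, or 0.60 (adjusted p = 0.106) without LPS replicate 3. Extract at 24 h lay wholly above control (log2 change 0.88 ± 0.28 SE, adjusted p = 0.0167), and the call went without any of 4 libraries: control replicates 3 and 4 gave 0.77 (adjusted p = 0.0663) and 0.82 (adjusted p = 0.0525), extract replicates 2 and 3 0.86 (adjusted p = 0.0516) and 0.81 (adjusted p = 0.0734). The smooth muscle sum was 25.9 to 30.8 CPM with extract at 24 h and 15.7 to 19.4 in control, and its part in the rise of Fbn1 was not tested. Fbln5, an elastin-binding fibulin, rose with LPS at 8 h by 1.25 ± 0.48 (SE, adjusted p = 0.0301), and this call went without control replicate 3 (0.99, adjusted p = 0.0917), control replicate 2 (1.31, adjusted p = 0.05001), LPS replicate 1 (1.07, adjusted p = 0.0906) or LPS replicate 3 (1.21, adjusted p = 0.0639).

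The small leucine-rich proteoglycans did not move as one. Dcn, decorin, which binds collagen fibrils and growth factors, was at 36.3, 42.5, 51.6 and 43.8 CPM in control and 80.8, 79.0, 89.1 and 93.2 with LPS at 8 h, and at 38.0, 55.4, 57.9 and 66.2 and 116, 118, 78.3 and 128 at 24 h. LPS cultures lay above all controls at both times (log2 change 0.98 ± 0.24 SE, adjusted p = 6.51e-04 and 1.01 ± 0.23 SE, adjusted p = 5.40e-04). The fibroblast sum at 24 h was 25.6 to 38.6 CPM with LPS and 47.0 to 65.5 in control, with every LPS culture below every control, but the list did not move as one: Pdgfrb (log2 change 1.76), Thy1 (1.75) and Tnc (0.91) rose, and Pdgfra (-1.11), Postn (-1.82) and Gas1 (-3.77) fell. At 72 h Dcn was at 257, 143 and 185 CPM in control, 180.3, 102, 101 and 124 with LPS, 79.5, 28.9 and 55.9 with IL-4 and 71.3, 68.7 and 64.2 with extract. IL-4 and extract lay below control, and LPS overlapped it. The log2 changes were -1.83 ± 0.27 (SE, adjusted p = 2.94e-06) with IL-4 and -1.52 ± 0.27 (SE, adjusted p = 4.51e-05) with extract. With LPS it was -0.65 ± 0.25 (SE, adjusted p = 0.0440), and -0.39 (adjusted p = 0.345) without control replicate 1, -0.69 (adjusted p = 0.0636) without control replicate 4, and -0.56 (adjusted p = 0.133), -0.56 (adjusted p = 0.1253) and -0.65 (adjusted p = 0.0795) without LPS replicates 2, 3 and 4.

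Ogn, Bgn, Lum and Sparc fell with LPS at 72 h. Ogn, osteoglycin, was at 22.5, 14.9 and 20.3 CPM in control at 72 h and 0.964, 0.0934, 0.366 and 0.349 with LPS (log2 change -6.01 ± 0.56 SE, adjusted p = 1.36e-11), and it rose in control from 8 h by 4.06 ± 0.43 (SE, adjusted p = 8.28e-09). Bgn, biglycan, was at 42.0, 36.6 and 36.9 CPM in control, 5.78, 7.29, 7.14 and 7.57 with LPS, 8.26, 5.80 and 6.37 with IL-4 and 24.1, 20.3 and 21.1 with extract. The groups did not overlap with control, and extract stood between (-2.42, -2.49 and -0.81 as log2 changes). At 8 h Bgn with extract was at 10.3, 8.91, 5.67 and 9.75 CPM, below its 72 h values with extract. Change over time within a stimulus was not tested. Lum, lumican, had 1 count in all LPS libraries at 72 h against 34 in control, a ratio of 93.3 (95% counting interval 15.7 to 3792). Sparc was at 31.8, 18.5, 22.0 and 19.7 CPM with LPS, 48.4, 25.3 and 39.4 with IL-4 and 56.2, 66.8 and 51.5 with extract at 72 h (log2 changes -3.84 ± 0.23 SE, adjusted p = 1.19e-16, -3.03 ± 0.24 SE, adjusted p = 1.39e-12 and -2.42 ± 0.23 SE, adjusted p = 2.25e-10).

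At 8 and 24 h the counts of changed members were smaller than at 72 h. Against a background of 21.3% higher and 24.1% lower, 8 members rose and 1 fell with LPS at 8 h; with extract 4 rose and 3 fell (background 13% and 17.2%). With IL-4 at 8 h 1 rose and 0 fell (background 4.29% and 4.04%; unadjusted 2 and 2, DESeq2 1 and 0). That count was 0 without control replicate 2 or IL-4 replicate 1, and 2 without control replicate 3 or IL-4 replicates 2 or 3. At 24 h the counts were 7 higher and 9 lower with LPS (background 18.6% and 19.3%), 3 and 5 with extract (11.7% and 10.4%) and 4 and 4 with IL-4 (4.74% and 4.76%). Without control replicate 4, 5 members were called with extract in place of 8. The members' shares were near or below the background in all of these except IL-4 at 24 h, where 8.51% of the members rose and 8.51% fell. The 4 that fell there were 2 with no count filter, with the pair of groups fitted alone, without the libraries that stood apart, and without control replicate 1 or 2 or IL-4 replicate 1 or 2, so the share that fell was not stable. With LPS at 24 h the 7 that rose were 4 without the ribosomal-rich libraries, control replicate 3 or LPS replicate 2. With extract at 8 h the 3 that fell were 5 without control replicate 3 and the 4 that rose were 2 without control replicate 4; at 24 h the 5 that fell were 3 without control replicate 4 or extract replicate 4, and the 3 that rose were 5 without control replicate 2.

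The change of an effect between 8 and 72 h was tested directly. The LPS effect was lower at 72 h than at 8 h in 25 members and higher in 0 (background 14.3% and 15.7%; unadjusted 26 and 0, DESeq2 25 and 0). The IL-4 effect was lower in 15 and higher in 0 (background 6.57% and 9.51%; unadjusted 23 and 0, DESeq2 19 and 0), and the extract effect lower in 13 and higher in 2 (background 8.75% and 13.1%). For Sparc the difference of log2 changes was -3.82 ± 0.30 (SE, adjusted p = 8.55e-13) with LPS, -3.22 ± 0.31 (SE, adjusted p = 8.35e-10) with IL-4 and -2.12 ± 0.30 (SE, adjusted p = 1.27e-06) with extract. The 2 with a larger extract effect at 72 h were Fbln2 (1.59 ± 0.36 SE, adjusted p = 0.00133) and Lamc1 (1.01 ± 0.34 SE, adjusted p = 0.0259). The Lamc1 call went without control 8 h replicate 2 (0.87, adjusted p = 0.0713), control 72 h replicate 3 (0.97, adjusted p = 0.0576), extract 8 h replicate 2 (0.91, adjusted p = 0.0574) or extract 72 h replicate 4 (0.94, adjusted p = 0.0667).

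Whether members followed the stromal markers among cultures of 1 group was tested with the log2 sum of the mesothelial and fibroblast lists as a covariate. 6 members rose with it and 1 fell (background 2.24% and 1.69%): Col3a1 0.91 ± 0.15 (SE, adjusted p = 2.81e-04), Col5a2 0.60 ± 0.12 (SE, adjusted p = 0.00236), Col6a1, Col6a2 1.66 ± 0.24 (SE, adjusted p = 2.49e-05), Col6a5 2.93 ± 0.73 (SE, adjusted p = 0.0165) and Lum rose, and Fbln2 fell by 0.62 ± 0.17 on the log2 scale (SE, adjusted p = 0.0384). Several of these values turned on IL-4 72 h replicate 3. Without it Col3a1 was 0.50 (adjusted p = 0.132), Col6a1 0.35 (adjusted p = 0.667), Col6a5 0.64 (adjusted p = 0.813), Lum 1.08 (adjusted p = 0.514) and Fbln2 0.58 (adjusted p = 0.0302), and without the 4 libraries that stood apart 0 members were called. Without IL-4 72 h replicate 2 only 3 members were called.

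Genes that modify, cross-link and receive this matrix moved in both directions. Of 17 tested genes for collagen hydroxylation, folding and secretion, 4 rose and 6 fell with LPS at 72 h (background 16.1% higher, 15.4% lower). Serpinh1, the collagen chaperone, fell by 2.60 ± 0.17 (SE, adjusted p = 1.91e-15) and P4ha1, a prolyl hydroxylase subunit, rose by 1.42 ± 0.15 (SE, adjusted p = 4.41e-10), and P4ha1 had risen by 2.19 ± 0.14 (SE, adjusted p = 4.67e-17) at 8 h. Of 10 tested processing and cross-linking genes, 4 rose and 1 fell with extract at 8 h (background 13% and 17.2%), and 2 rose and 6 fell with LPS at 72 h. Over time in control 6 of these 10 rose and 0 fell (background 6.38% and 7.16%). Lox, which cross-links collagen and elastin, was at 198 against 4.41 CPM with extract at 8 h and 356 against 6.80 CPM at 24 h (log2 change 5.46 ± 0.25 SE, adjusted p = 1.30e-19 and 5.75 ± 0.25 SE, adjusted p = 1.09e-19), and it was still higher at 72 h (3.96 ± 0.28 SE, adjusted p = 9.86e-14). Of 6 tested further basement membrane genes, Agrn, which encodes agrin, rose with LPS at 8 h by 3.5 ± 0.21 (SE, adjusted p = 1.83e-17) and Dag1, the laminin receptor dystroglycan, fell by 1.78 ± 0.15 (SE, adjusted p = 3.82e-13). At 72 h 1 of these 6 rose and 4 fell with LPS, 0 and 3 with IL-4, and 1 and 3 with extract. Of 10 tested receptors, 1 rose and 6 fell with LPS at 72 h, 0 and 5 with IL-4, and 0 and 4 with extract. The background at 72 h was 13.2% higher and 10.5% lower with IL-4, and 14.2% and 12.2% with extract. Over time in control 6 receptors rose and 0 fell. With LPS at 8 h 4 receptors rose and 2 fell (background 21.3% and 24.1%). The integrin chains Itgb1, Itga1 and Itga2 and the laminin receptor Bcam rose, by log2 changes of 1.15, 0.92, 2.34 and 1.44, and were listed in full after their values were seen; Itga6, a laminin receptor chain, fell by 1.34 ± 0.17 (SE, adjusted p = 1.34e-08) and Lair1, an inhibitory collagen receptor, fell by 2.22 ± 0.13 (SE, adjusted p = 8.70e-18).

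The count filter keeps a gene that is present in enough libraries of any group, so every tested member was detected somewhere. The 21 untested members were all scarce. They had 12 to 194 counts over all 44 libraries, and none exceeded 2.02 CPM in any library. They comprised Col2a1, Col4a4, Col6a4, Col6a6, all 3 short-chain network collagens, 5 fibril-associated chains, 2 transmembrane and 2 other collagens, Lama1, Lama2, Lama3, Lamc3 and Fbln7.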

How the data were processed

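The authors deposited counts: 1 table of whole-number reads for each Ensembl gene in all 44 libraries, from single-end 50 bp reads of polyadenylated RNA. The submitters' processing notes name build mm10 and the tools HTSeq, edgeR, DESeq, cutadapt, TopHat, TopHat2 2.1.1 and Bowtie2; the sources used here give neither the annotation release nor the strand setting. The 5 summary rows were kept out of totals and tests, and ambiguous reads made up 5.39% of gene counts plus ambiguous reads. Positions and exon lengths came from GENCODE M21 (GRCm38, which mm10 denotes), where all 68 members were found. Counts cover all members; 1 of them is not reported by name here.

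Genes that passed filterByExpr at a minimum count of 10 over the 12 groups, 14537 in all, were fitted in 1 quasi-likelihood model with edgeR 4.0.16 (limma 3.58.1, R 4.3.3), with TMM scaling and a coefficient per group (32 residual degrees of freedom and a biological coefficient of variation of 0.219; log2 changes used a prior count of 0.125). Calls used a Benjamini-Hochberg adjusted p under 0.05 over all tested genes. Each SE was derived from the test, as the absolute log2 change divided by the square root of its F statistic. The steps were tested on simulated data. Intervals on ratios of counts cover counting error only.

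The members, lists, tests and alternatives were chosen with earlier results of these data known. Named were 17 fixed members, those raised by the rule given in the text, up to 6 per stimulus comparison that fell with the smallest p at 1 CPM or more in control, up to 8 for the control time course and for marker tracking, up to 4 per effect difference, and from each pathway list up to 4 genes per stimulus. Same-numbered cultures deviated together in every pair (Pearson r over 0.1, across genes) for extract at 8 h, LPS at 8 h and LPS at 24 h. The same held for extract at 72 h, where replicates 3 and 4 gave r of 0.249 and 0.284. Such pairing was not stated in the labels. Alternatives were DESeq2 1.42.0, RLE size factors, no count filter, each pair of groups alone, a replicate block, each library left out and, chosen after seeing the data, leaving out the ribosomal-rich libraries or those that stood apart.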

Additional observations from a re-analysis of the deposited data

Results flagged for a closer look

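In groups of 4 cultures, 24 members gave 192 sets of values, and in 17 of them 1 culture lay far from the other 3; chance gives about 1 in 20. With IL-4 at 24 h these were Col1a2 (199 CPM in the culture apart), Col5a3 (2.18 CPM), and Col4a1, Col27a1 and Lamb3 (each 0); the IL-4 24 h library of replicate 1 was also the shallowest of all 44, at 0.909 M counts. With IL-4 at 8 h they were Col4a1 (2.49 CPM), Col4a2 (2.85 CPM) and Col5a3 (0.621 CPM). With LPS they were Col6a5 at 8 h (0.293 CPM) and 24 h (0.0797 CPM), Ogn (0) and Col27a1 (0.593 CPM) at 24 h, and Col1a2 (86.8 CPM) and Lum (0.116 CPM) at 72 h. In the remaining groups they were Lum with extract at 8 h (0), and Lama5 in control (0.102 CPM) and with extract (0) at 8 h. Values under 1 CPM rest on a few counts.

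The effect of a stimulus differed between 72 h and 8 h by an interaction term in edgeR's quasi-likelihood fit. With extract the difference of log2 changes was -3.89 ± 0.64 (SE, adjusted p = 1.51e-05) for Col6a1, -2.12 ± 0.30 (SE, adjusted p = 1.27e-06) for Sparc, -1.79 ± 0.36 (SE, adjusted p = 2.91e-04) for Dcn and -1.67 ± 0.31 (SE, adjusted p = 9.99e-05) for Col1a1. With LPS it was -3.82 ± 0.30 (SE, adjusted p = 8.55e-13) for Sparc, -3.37 ± 0.37 (SE, adjusted p = 2.08e-09) for Col3a1, -3.18 ± 0.32 (SE, adjusted p = 2.70e-10) for Col1a1 and -2.58 ± 0.24 (SE, adjusted p = 8.01e-11) for Bgn. With IL-4 it was -3.61 ± 0.32 (SE, adjusted p = 2.38e-10) for Col1a1, -3.22 ± 0.31 (SE, adjusted p = 8.35e-10) for Sparc, -2.98 ± 0.39 (SE, adjusted p = 6.99e-07) for Col1a2 and -2.13 ± 0.26 (SE, adjusted p = 1.94e-07) for Bgn. The collagen I values were smaller without control 72 h replicate 1, at -1.09 (adjusted p = 0.00245) for Col1a1 with extract, -3.02 (adjusted p = 2.83e-10) for Col1a1 and -2.36 (adjusted p = 6.94e-06) for Col1a2 with IL-4, and the Col6a1 value was -4.52 (adjusted p = 1.22e-04) without extract 72 h replicate 2.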

How the results depend on the processing

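Over 14 comparisons 211 results of single members passed the threshold, and 146 of them kept their call and direction under every alternative run. Of the results each alternative covered, 204 kept their call with DESeq2, 210 with RLE size factors and 186 with no count filter; 177 kept it with each pair of groups fitted alone and 27 did not. The total numbers of members called, both directions together, stayed within 1.5 times of the main totals, with these exceptions. Cell extract at 24 h gave 16 with groups fitted alone, and IL-4 at 8 h gave 3 with no filter and 0 with groups alone. By direction more counts moved: extract at 8 h gave 7 lower with groups alone and 5 with a replicate block in place of 3, and 2 higher with no filter in place of 4; LPS at 24 h gave 4 higher without the ribosomal-rich libraries in place of 7; IL-4 at 24 h gave 2 lower in place of 4 with no filter, groups alone or without the libraries that stood apart; counts of 0 to 2 in 1 direction also moved by 1 or 2. Marker tracking gave 1 with the mesothelial list alone, 13 with the fibroblast list alone, 3 with the 72 h groups alone and 0 without the libraries that stood apart. With each library left out in turn, the number called was 5 to 10 for extract at 24 h, 0 to 2 for IL-4 at 8 h and 3 to 8 for marker tracking. Fbln2 in marker tracking changed sign, from -0.62 to 0.67 without the libraries that stood apart and 0.58 without IL-4 72 h replicate 3 (range -0.72 to 0.58 with each library left out); the cause was not tested.

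With a replicate block, the comparisons whose same-numbered cultures deviated together gave these numbers of members called: extract at 8 h 9, LPS at 8 h 9, LPS at 24 h 16 and extract at 72 h 24. With it 209 single results kept their call. The 2 that did not were Lamb1 with IL-4 at 72 h (log2 change -0.70, adjusted p = 0.0727) and Lum in marker tracking (1.64, adjusted p = 0.189). In the shallow libraries, such as IL-4 24 h replicate 1, members below 1 CPM rest on very few counts, and differences among them were often not detectable.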
